A study of Mus musculus with 19 samples.

Results

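The 48 protein-coding genes of the mouse Wnt family and its extracellular machinery were followed in 19 RNA-seq libraries of mammary glands and mammary tumors. They were taken by symbol from the 46078 genes measured and comprise 19 Wnt ligands, 12 receptors (10 Frizzled genes with Lrp5 and Lrp6), 6 Wnt-binding inhibitors (5 SFRP genes, of which Sfrp3 carries the symbol Frzb, with Wif1), 4 Dickkopf genes, 4 R-spondins and 3 Lgr receptors. The rule used symbols and no measured value, but it was set with earlier results of these data known.

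The libraries fall into 5 groups of female mice. The MMTV-neu transgene, shared by all groups except the wild type, expresses ERBB2 in mammary epithelium. Fsp-Cre expresses Cre in fibroblasts, and the conditional p53wm-R172H allele makes wild-type p53 until Cre converts it to R172H. N tumors (n = 4) came from MMTV-neu;Fsp-Cre mice, as did N gland 1, whereas N glands 2, 3 and 4 came from mice with MMTV-neu and the heterozygous conditional allele but no Cre, so the N gland group (n = 4) mixes both genotypes. NP glands (n = 4) and NP tumors (n = 4) carried MMTV-neu, the heterozygous conditional allele and Fsp-Cre. N and NP glands were taken from tumor-bearing mice and had no malignant lesion, and the WT glands (n = 3) were wild type and age-matched. The transgenic mice were on a mixed FVB/C57/BALB/c background. NP tumors 1 and 2 have the same number in their library names, and whether they came from a single mouse is not stated. Gene counts pool both Trp53 alleles, so they cannot show the mutant. The study set out to learn what mutant p53 in fibroblasts changes in glands and tumors. Here the same groups show how Wnt ligands, receptors and modulators differed between normal gland, tumor-bearing gland and tumor.

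Wnt proteins are secreted, lipid-modified ligands that bind Frizzled receptors together with the co-receptors LRP5 and LRP6, which stabilizes beta-catenin, or act through Frizzleds without beta-catenin. R-spondins bind Lgr receptors and keep Frizzleds at the cell surface. SFRP proteins and WIF1 bind Wnt ligands outside the cell, and Dickkopf proteins act on the LRP co-receptors. In the mammary gland, WNT4 and RSPO1 are made by luminal cells and act on basal cells. Several Wnt and R-spondin genes are classic integration sites of the mouse mammary tumor virus.

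The libraries differed in cell content along with their group. Libraries of the 16 N and NP samples held 20899152 to 27262440 reads on genes and the 3 WT libraries 54677315 to 62645459, a gap that the size factors of the authors scale out but that cannot be told apart from genotype. Marker scores, each the mean log2(normalized count + 1) of a gene list, moved with the groups. The 9 white adipocyte genes scored 6.05 ± 0.583 in WT glands, with Adipoq between 1.71 and 23.4 normalized counts, so the main adipocyte marker was nearly absent from tissue labelled mammary gland, against 14.7 ± 0.0968 in N glands, 13.96 ± 0.559 in NP glands, 7.10 ± 2.32 in N tumors and 7.21 ± 0.595 in NP tumors. The 7 basal epithelium genes fell from 13 ± 0.131 in WT glands to 10.4 ± 0.675 in N glands and 10.4 ± 0.545 in NP glands, with 7 of 7 called lower in each, and scored 6.40 ± 0.86 in N tumors and 7.29 ± 0.451 in NP tumors, where the defining basal keratin Krt5 had 3.41 to 26.3 normalized counts against 6884 to 9245 in WT glands. The 5 genes of hormone receptor cells scored 12.2 ± 0.929, 10.1 ± 0.45, 9.11 ± 1.11, 6.32 ± 0.505 and 6.37 ± 0.69 in the same order. The 9 luminal genes scored 13.1 ± 0.108 in WT glands, 10.6 ± 0.512 in N glands, 10.7 ± 0.792 in NP glands, 12.3 ± 0.282 in N tumors and 12.5 ± 0.256 in NP tumors. The 18 skeletal muscle genes took 2.06%, 9.92%, 0.0672% and 5.59% of the reads in NP glands 1 to 4 and at most 0.13% in any library of the other groups. In these bulk samples fewer cells of a type and less RNA per cell cannot be told apart, and the part of cell content in the differences between groups reported for the Wnt genes was not tested.

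**Figure D1:**
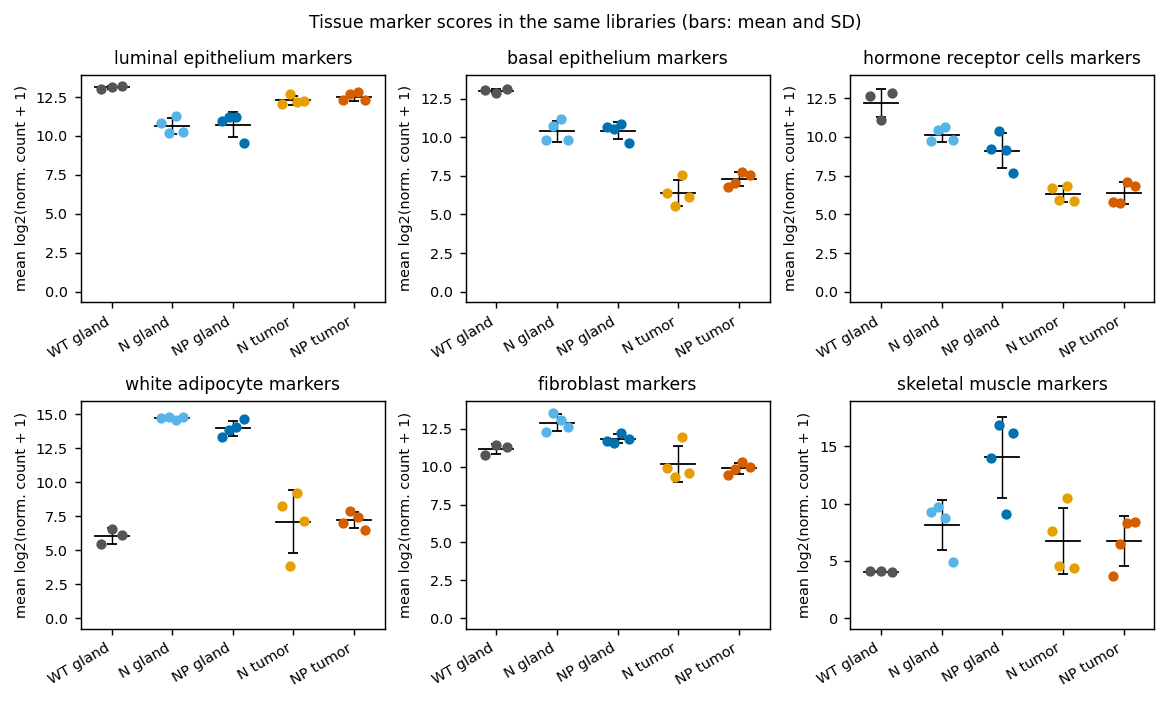
Tissue marker scores (mean log2(normalized count + 1) over each list, y axis) in the 5 groups (x axis), with a point per library and bars for the mean and SD. White adipocyte scores are high in N and NP glands and low in WT glands and tumors, basal and hormone receptor scores are lowest in tumors, and skeletal muscle scores are highest in NP glands 1, 2 and 4.

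Most of the family was expressed in glands, and fewer of its genes were expressed in tumors. A mean of at least 10 normalized counts was reached by 38 of the 48 genes in WT, N and NP glands alike, by 30 in N tumors and by 28 in NP tumors. The share of all genes at this cut was not counted, so these counts cannot be set against it. Of all genes, 18563 had enough counts to be tested between NP and N glands and 16638 between NP and N tumors. Levels of different genes were compared as normalized counts per kb of exon. In WT glands the highest were Fzd7, a receptor of basal and progenitor cells, at 1723 ± 167 per kb, Lgr6 at 1090.2 ± 179 and Wnt5b at 979 ± 231, of which Lgr6 and Wnt5b overlapped. In N glands Fzd4, which also serves as the receptor of the ligand Norrin, was first at 796 ± 135 per kb, followed by Lrp6 at 606 ± 68.5. The same receptors led in NP glands, with 620.3 ± 217 per kb for Fzd4 and 491 ± 70.3 for Lrp6, and in both gland groups the ranges of Fzd4 and Lrp6 overlapped. In N tumors the secreted inhibitor Sfrp1 had the highest mean, 1093 ± 1132 per kb, with a spread as large as its mean, so that its place above Lrp5 (786 ± 153) and Lrp6 (768 ± 179) is not resolved. In NP tumors Lrp6 led at 756 ± 31.9 per kb, above Lgr4 (625 ± 183.25) and Sfrp1 (562 ± 241), whose ranges overlapped it.

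Summed per kb over the 19 ligands, Wnt transcripts were most abundant in WT glands, from 1954 to 2666 normalized counts per kb. N glands summed to 473 to 951, NP glands to 528 to 835, N tumors to 229 to 613 and NP tumors to 350 to 1024. N tumors were thus not separated from N glands, nor NP tumors from NP glands. The Frizzled and LRP receptors held up better, with 4511 to 5095 per kb in WT glands, 2322 to 2976 in N glands, 1981 to 2904 in NP glands, 2381 to 5302 in N tumors and 2832 to 3431 in NP tumors. R-spondins summed to 19.4 to 39.1 per kb in N tumors and 1.76 to 43.6 in NP tumors, below every gland, where the lowest sum was 62.8.

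**Figure D2:**
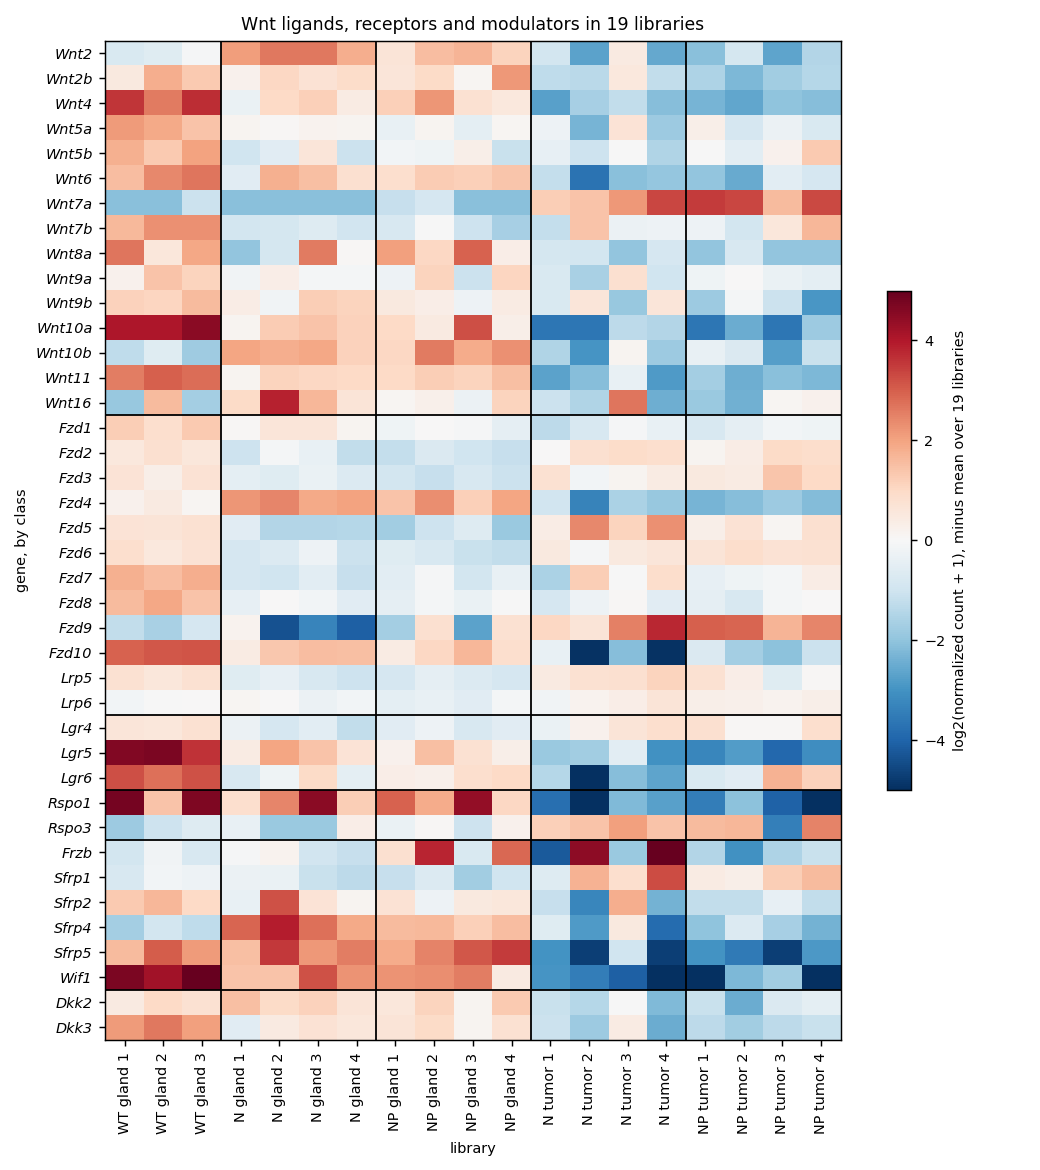
Expression of the 40 members that could be tested in at least 1 comparison (rows, by class) in the 19 libraries (columns, by group); colors give log2(normalized count + 1) minus the gene's mean over all libraries and saturate at 5 in either direction. Blocks of red in WT glands and blue in tumors mark Wnt4, Wnt10a, Wnt11, Lgr5, Rspo1 and Wif1, whereas Fzd9 and Wnt7a are red in tumors.

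To be tested, a gene needed 10 normalized counts in a number of samples no lower than the size of the smaller group, and it was called at an adjusted p below 0.05 with at least a 2-fold difference (limma). Of the 48 genes, 40 passed this filter in at least 1 comparison and 36 were called at least once. Dkk1, Dkk4, Rspo2, Rspo4, Wnt1, Wnt3, Wnt3a and Wnt8b were too low for any test. Of these, Dkk4 had 0 reads in every library, and the others reached at most 11.9 normalized counts in any library. Frzb, Lrp6, Wnt8a and Wnt16 were tested and not called in these fits.

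Glands of tumor-bearing mice had less transcript than WT glands for many Wnt ligands, receptors and Lgr genes, and more for a small set. In N glands 4 of 39 tested members were higher and 19 lower, whereas 37% of all 19017 genes tested were called (19.1% higher, 17.9% lower). In NP glands 4 of 39 were higher and 22 lower, against 32.6% of 19065 genes (16.4% higher, 16.2% lower). The samples of the groups did not overlap for 24 members in N glands, against 61.3% of all genes, and for 27 in NP glands, against 54.4%. The median log2 difference of the tested members was -1.35 in N glands and -1.19 in NP glands, where the median of all genes was 0.02 in each. Fzd4, Sfrp4, Wnt2 and Wnt10b were the higher members in N glands and again in NP glands, and both comparisons used the same 3 WT glands. With the skeletal muscle score as a covariate, 13 members were called in NP glands against WT glands, 0 higher and 13 lower, where 1008 genes were higher and 1345 lower of 19065. Of the 13, 10 were called without the covariate, and Fzd9, Sfrp1 and Wnt9a were not. Of the higher members, Sfrp4, Wnt10b and Wnt2 kept log2 differences of 2.25, 2.31 and 2.16 without passing, and Fzd4 had 0.20. The muscle score ran from 3.99 to 4.12 in WT glands and from 9.07 to 16.85 in NP glands, without overlap. The covariate is thus nearly tied to group, and fits with it cannot show how muscle content bears on a call. This holds for each call described below as lost with the covariate. In NP against WT glands, Fzd2, Fzd4, Fzd5, Sfrp4, Wif1, Wnt2, Wnt4, Wnt5b and Wnt7b kept the call in 18 of 19 alternatives. Wnt10b kept it in 17 of 18. For each of them the covariate was the only alternative that lost the call. When NP glands 2 and 4, those richest in muscle transcripts, were both left out, 4 higher and 23 lower were called, an alternative chosen after seeing the data.

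N tumors were set against N glands and NP tumors against NP glands. Only N gland 1 had the genotype of the N tumors, so in N tissue and genotype are partly confounded. Tumors had less transcript than these glands for the inhibitors Wif1, Sfrp4 and Sfrp5, for Rspo1 and Lgr5 and for Fzd4 and Fzd10. They also had less for Wnt2, Wnt4, Wnt10a, Wnt10b and Wnt11, and more for Fzd2, Fzd5, Fzd6, Fzd9 and Sfrp1. In N tumors 8 of 37 tested members were higher and 15 lower than in N glands, where 35.1% of 17950 genes were called (12.8% higher, 22.3% lower). In NP tumors 7 of 37 were higher and 17 lower than in NP glands, against 38.7% of 17880 genes (14.7% higher, 24% lower). Groups did not overlap for 22 members in N, against 49.2% of all genes, and for 26 in NP, against 52.6%. The median log2 difference of tested members was -1.06 for N and -0.47 for NP, beside -0.05 and -0.07 for all genes. These comparisons share no sample, and 14 members were lower in both, namely 14 of the 15 in N and of the 17 in NP, while 5 were higher in both, out of 8 in N and 7 in NP. The share of all genes called the same way in both was not counted, so this overlap cannot be set against it. In NP tumors against NP glands the muscle covariate left 20 calls, without Dkk2, Fzd5, Sfrp2, Wnt2b and Wnt6 and with Fzd7. There too the muscle scores of the groups did not overlap, at 3.69 to 8.42 in NP tumors. Set against WT glands, the 8 tumors were higher for 2 of 38 tested members, Fzd9 and Wnt7a, and lower for 23, where 45.6% of 18735 genes were called (18.9% higher, 26.7% lower), and groups did not overlap for 21 of the 38, against 54.2% of all genes.

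**Figure D3:**
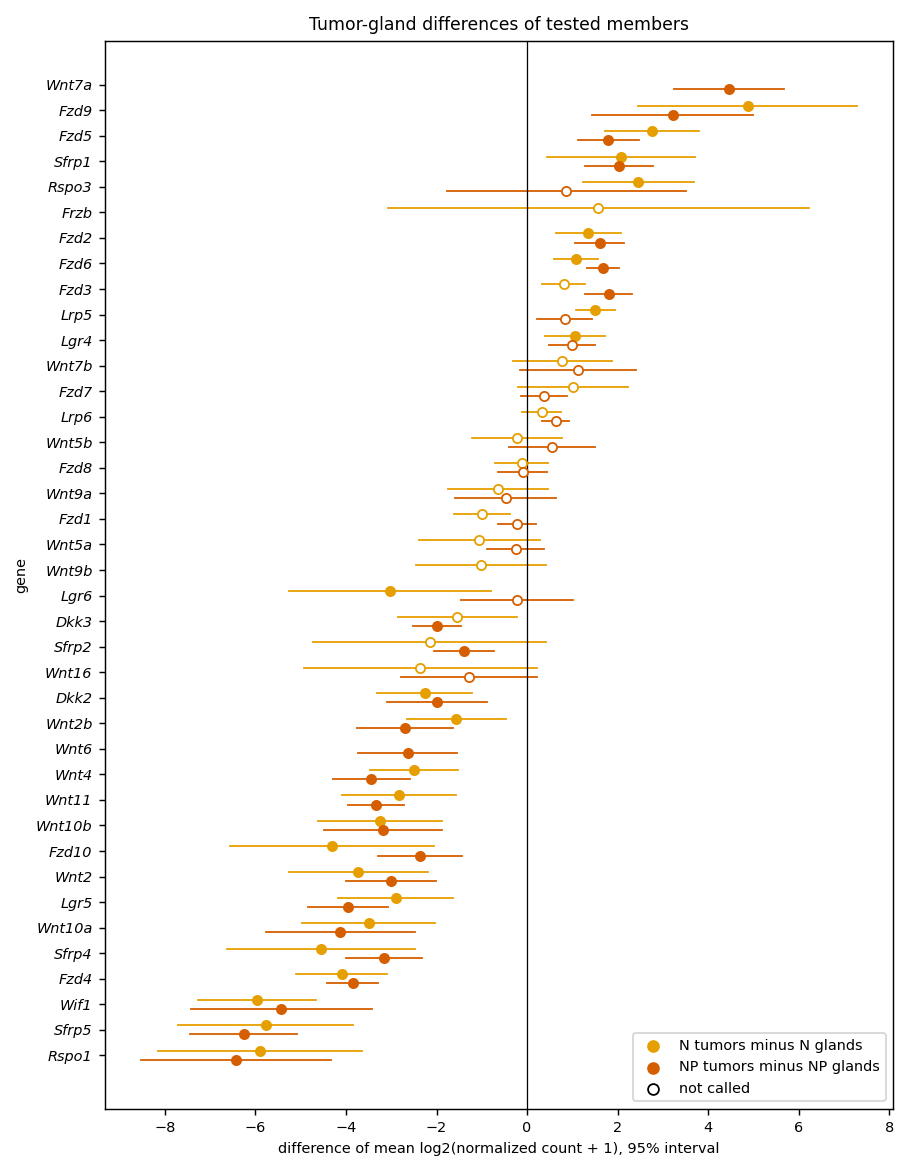
Difference of mean log2(normalized count + 1) between tumors and glands (x axis) with its 95% interval for each tested member (y axis), for N in yellow and NP in orange; filled points were called and open points were not. Rspo1, Sfrp5 and Wif1 lie farthest to the left and Fzd9 and Wnt7a farthest to the right.

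Promoters are printed for 5 members that were called in both tumor-gland comparisons: Rspo1 and Fzd9, with the largest mean fall and rise among those with a promoter in the RefSeq table used here, and Dkk2, Fzd4 and Wnt11, the 3 that hold a motif searched for. Each line runs 5′ to 3′ on the gene's strand from 250 bases before to 50 bases after the RefSeq start (GRCm38.p6), and capitals mark a motif.
Rspo1, chr4:124986180-124986479, plus strand: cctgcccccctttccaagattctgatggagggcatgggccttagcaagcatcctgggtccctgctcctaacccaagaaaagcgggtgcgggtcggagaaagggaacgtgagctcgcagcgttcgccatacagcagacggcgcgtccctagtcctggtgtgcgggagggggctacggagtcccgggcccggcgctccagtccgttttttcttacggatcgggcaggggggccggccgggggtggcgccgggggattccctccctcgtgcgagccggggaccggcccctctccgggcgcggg
Fzd9, chr5:135250998-135251297, minus strand: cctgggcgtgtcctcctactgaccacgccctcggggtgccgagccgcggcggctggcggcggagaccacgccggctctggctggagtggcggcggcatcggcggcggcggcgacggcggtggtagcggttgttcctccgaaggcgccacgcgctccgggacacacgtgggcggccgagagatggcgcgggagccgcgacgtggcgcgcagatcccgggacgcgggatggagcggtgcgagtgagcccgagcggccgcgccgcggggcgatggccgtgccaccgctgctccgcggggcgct
Dkk2, chr3:132085042-132085341, plus strand: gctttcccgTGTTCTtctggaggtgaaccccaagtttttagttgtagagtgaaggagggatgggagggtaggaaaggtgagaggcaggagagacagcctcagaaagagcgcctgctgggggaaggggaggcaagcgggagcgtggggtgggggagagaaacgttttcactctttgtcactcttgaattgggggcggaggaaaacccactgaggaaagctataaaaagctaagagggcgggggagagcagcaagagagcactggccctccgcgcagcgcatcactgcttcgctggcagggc
Fzd4, chr7:89404116-89404415, plus strand: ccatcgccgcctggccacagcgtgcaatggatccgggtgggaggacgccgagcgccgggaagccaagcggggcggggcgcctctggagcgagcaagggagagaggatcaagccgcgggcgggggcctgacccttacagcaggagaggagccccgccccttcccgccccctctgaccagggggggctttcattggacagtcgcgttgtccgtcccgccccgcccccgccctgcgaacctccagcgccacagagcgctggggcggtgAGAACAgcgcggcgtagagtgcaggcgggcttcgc
Wnt11, chr7:98834862-98835161, plus strand: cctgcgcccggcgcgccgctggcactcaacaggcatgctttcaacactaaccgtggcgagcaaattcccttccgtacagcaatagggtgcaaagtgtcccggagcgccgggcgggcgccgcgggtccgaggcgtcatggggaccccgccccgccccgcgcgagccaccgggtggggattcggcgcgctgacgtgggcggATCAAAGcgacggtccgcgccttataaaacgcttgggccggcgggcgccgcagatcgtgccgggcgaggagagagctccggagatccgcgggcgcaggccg

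The motif of the TCF/LEF factors, which carry beta-catenin to DNA, was searched as CTTTGAT on both strands, and it lay in 1 of 31 member promoters in the table, that of Wnt11 at -51, or 3.23%, against 3.73% of all 32851 promoters of the same length. A half-site of some steroid receptors, TGTTCT on both strands, lay in Dkk2 at -241, in Fzd4 at +16 and in Wnt8b, or 9.68% of 31 against 19% of all. Half-sites of other steroid receptors, such as the estrogen receptor, were not searched. The motifs did not overlap. Member promoters were rich in CG dinucleotides, with a median of 27 per promoter against 7 over all promoters, which include those of non-coding genes. Rspo1 has 29, Fzd9 53, Dkk2 11, Fzd4 32 and Wnt11 45. These matches describe letters in a window and no binding.

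Of the 19 ligands, 14 were tested in glands against WT glands, with 2 higher and 6 lower in N and 2 higher and 8 lower in NP glands. Of all genes 37% were called in N and 32.6% in NP glands. Of 12 ligands tested in N tumors 0 were higher and 6 lower than in N glands, against 35.1% of all genes called. Of 13 in NP tumors 1 was higher and 7 lower than in NP glands, against 38.7% of all genes. Wnt4, the progesterone-induced paracrine signal of the luminal layer (ENSMUSG00000036856, chromosome 4, 137277489 to 137299726 of GRCm38), stepped down from WT gland to tumor-bearing gland to tumor. WT glands had 2284, 1169 and 2513 normalized counts, N glands 150.3, 386, 432 and 256, NP glands 435, 884, 324 and 274, N tumors 28.4, 60.1, 80.8 and 43.2 and NP tumors 37, 30.5, 46.8 and 42.5. WT glands, tumor-bearing glands and tumors formed 3 ranges that did not overlap. N glands were lower than WT glands (log2 difference -2.73 ± 0.40 SE, limma adjusted p = 0.000653), N tumors lower than N glands (log2 difference -2.49 ± 0.43 SE, limma adjusted p = 0.00169) and NP tumors lower than NP glands (log2 difference -3.44 ± 0.37 SE, limma adjusted p = 0.00013). NP glands were lower than WT glands as well (log2 difference -2.13 ± 0.45 SE, limma adjusted p = 0.00734), a call that was lost with the muscle covariate (log2 difference -3.06, adjusted p = 0.0894).

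Wnt10a followed the same order at lower counts and was close to undetected in tumors. WT glands had 201.29, 205 and 283 normalized counts, N glands 12.7, 28.7, 31.9 and 26.8 and NP glands 23.8, 15.7, 114 and 14.2. N tumors had 0, 0, 4.04 and 3.50 and NP tumors 0, 1.22, 0 and 2.50, the latter from 3 reads in all. 4 of the 8 tumor libraries had 0 reads, and no tumor reached the lowest gland. The fall was called in N (log2 difference -3.50 ± 0.65 SE, limma adjusted p = 0.00242) and in NP (log2 difference -4.13 ± 0.72 SE, limma adjusted p = 0.00158), and NP glands had 48.25 times the level of NP tumors, with a counting interval of 16.2 to 237 that covers counting error only. Against WT glands, N glands were lower (log2 difference -3.21 ± 0.34 SE, limma adjusted p = 0.000127). NP glands were lower too (log2 difference -2.97 ± 0.69 SE, limma adjusted p = 0.0113), but NP gland 3 was far above the other NP glands, and with the muscle covariate the difference turned positive, 0.81, with an adjusted p of 0.393.

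Wnt11, a ligand known mainly for signaling without beta-catenin, was lower in tumors. WT glands had 386, 507 and 449.5 normalized counts, N glands 70.1, 139, 133 and 129, NP glands 128, 153, 139.7 and 181, N tumors 9.09, 13.7, 48.5 and 8.17 and NP tumors 19.1, 10.98, 14.3 and 12.5. Every tumor was below every gland, with N tumor 3 the highest tumor. The differences were called for N (log2 difference -2.83 ± 0.55 SE, limma adjusted p = 0.00305) and NP (log2 difference -3.33 ± 0.27 SE, limma adjusted p = 3.53e-05).

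Wnt2 and Wnt10b were the ligands that were higher in tumor-bearing glands than in WT glands. Wnt10b, which restrains fat cell formation and is made by fat cell precursors, had 5.54, 9.27 and 3.62 normalized counts in WT glands, 61.1, 54.02, 58.2 and 33.99 in N glands and 31.5, 92.8, 55.2 and 76.2 in NP glands. It returned to 4.54, 1.05, 16.2 and 3.50 in N tumors and 11.2, 8.54, 1.299 and 6.24 in NP tumors. N and NP glands lay above all other libraries. Both rises over WT glands were called, at log2 difference 2.93 ± 0.37 SE, limma adjusted p = 0.000292 in N and log2 difference 3.15 ± 0.46 SE, limma adjusted p = 0.00187 in NP glands, and so were both falls in tumors, at log2 difference -3.24 ± 0.60 SE, limma adjusted p = 0.00246 and log2 difference -3.18 ± 0.58 SE, limma adjusted p = 0.00187. Wnt2, a ligand of mesenchymal cells, had 26.9, 30.3 and 44.4 normalized counts in WT glands, 199.97, 289.6, 292 and 167 in N glands and 72.5, 137, 151 and 99.4 in NP glands, against 23.9, 6.32, 63.6 and 7.003 in N tumors and 10.1, 24.4, 6.49 and 16.2 in NP tumors. All NP glands were below all N glands for Wnt2 without passing the test (log2 difference -1.05 ± 0.30 SE, limma adjusted p = 0.327). Tumors fell below their own glands for Wnt2 (log2 difference -3.72 ± 0.67 SE, limma adjusted p = 0.00213 in N, log2 difference -3.01 ± 0.44 SE, limma adjusted p = 0.000582 in NP). The white adipocyte score was high in the same 8 glands, and the rises in NP glands were not called with the muscle covariate (log2 difference 2.31 with an adjusted p of 0.189 for Wnt10b, and 2.16 with 0.118 for Wnt2, the latter larger than without the covariate).

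Wnt7a was the ligand that was higher in tumors. It had 0, 0 and 1.03 normalized counts in WT glands, 0, 0, 0 and 0 in N glands and 0.954, 1.43, 0 and 0 in NP glands, at most 2 reads in any of them. N tumors had 9.09, 10.5, 18.2 and 42.02 and NP tumors 47.1, 42.7, 11.7 and 41.2. Every tumor was above every gland. NP tumors were higher than NP glands (log2 difference 4.46 ± 0.54 SE, limma adjusted p = 0.000221), with a ratio of 62.5 and a counting interval of 16.9 to 522 over 2 reads in the NP glands. No NP gland reached 10 normalized counts, so Wnt7a entered this test only through the NP tumors, where it was high. In N only 3 tumors reached 10 normalized counts, so the gene was not tested, and its level was at least 24.55-fold higher in N tumors than the floor of 3 reads over the N glands. It was called without a low-count filter (log2 difference 4.14, adjusted p = 0.000336) and whenever N gland 1, 2, 3 or 4 or N tumor 1 was left out, because a smaller group eases the filter.

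The abundant ligands of WT glands that act largely without beta-catenin were lower in tumor-bearing glands and did not pass the test between tumors and glands. Wnt5a had 2289 ± 523 normalized counts in WT glands, 701 ± 27.5 in N glands, 583 ± 124 in NP glands, 468 ± 414 in N tumors and 506 ± 197 in NP tumors. Its difference from WT glands was called in N (log2 difference -1.68 ± 0.16 SE, limma adjusted p = 6.87e-05) and NP glands (log2 difference -1.97 ± 0.23 SE, limma adjusted p = 0.00075). Wnt5b fell in N glands (log2 difference -2.22 ± 0.40 SE, limma adjusted p = 0.00173) and in NP glands (log2 difference -2.01 ± 0.33 SE, limma adjusted p = 0.00294), in NP not with the muscle covariate (-0.78, adjusted p = 0.427). Its tumor-gland difference was -0.23 in N with a 95% interval of -1.23 to 0.76, and 0.54 in NP with an interval of -0.40 to 1.49. Wnt7b, a ligand of luminal cells, fell from 874, 1380.3 and 1395 in WT glands to 148, 153, 180.3 and 146 in N and 163, 279.8, 136 and 89.1 in NP glands (log2 difference -2.92 ± 0.19 SE, limma adjusted p = 1.25e-05 for N glands). In NP glands the difference was log2 difference -2.95 ± 0.39 SE, limma adjusted p = 0.00118, and with the muscle covariate -3.36 with an adjusted p of 0.0559. Wnt7b ranged from 123 to 757 in N tumors and 148 to 903 in NP tumors. It was called higher in tumors than in glands only without N tumor 1 (1.15, adjusted p = 0.0481) in N and without NP tumor 2 (1.53, adjusted p = 0.0451) in NP, or by DESeq2 in NP (1.36, adjusted p = 0.0353).

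The low ligands gave less firm calls. Wnt2b was lower in N tumors (log2 difference -1.56 ± 0.48 SE, limma adjusted p = 0.0244), a call lost without N gland 2, 3 or 4 or without N tumor 1, 2 or 4 (adjusted p = 0.0656, 0.0542, 0.0634, 0.0549, 0.0593 and 0.0606), and in NP tumors (log2 difference -2.69 ± 0.47 SE, limma adjusted p = 0.00152). Wnt6 was lower in NP tumors than in NP glands (log2 difference -2.64 ± 0.48 SE, limma adjusted p = 0.00187). It was not tested for N tumors, where 3 N glands but no tumor reached 10 normalized counts. It was called lower there when N gland 1 or any N tumor was left out (log2 difference -3.60 without N gland 1, and -3.45, -2.63, -3.16 and -3.21 without N tumors 1 to 4). A smaller group eases the filter, and Wnt6 then passed it through the N glands alone, where it was high. These fits share most libraries and are not separate support. In NP glands against WT glands, Wnt6 (log2 difference -1.03 ± 0.34 SE, limma adjusted p = 0.0394) and Wnt9b (log2 difference -1.03 ± 0.33 SE, limma adjusted p = 0.0351) were called at the edge of the threshold. Wnt6 lost the call without NP gland 1, 2 or 3 or WT gland 2 or 3 (adjusted p = 0.0794, 0.0614, 0.0598, 0.125 and 0.145), and Wnt9b without NP gland 2 or 3 or any WT gland (0.0512, 0.0566, 0.0967, 0.082 and 0.142). Wnt9a was lower in the 8 tumors than in WT glands (log2 difference -1.36 ± 0.44 SE, limma adjusted p = 0.0187), and the call was lost without WT gland 2 or 3 (adjusted p = 0.0976 and 0.0716). For Wnt9b the same fall (log2 difference -2.20 ± 0.66 SE, limma adjusted p = 0.0123) was lost without WT gland 3 (adjusted p = 0.0527). Without N tumor 3, Wnt5a, Wnt9a and Wnt16 were also called lower in N tumors than in N glands, at log2 differences of -1.59, -1.12 and -3.44. Wnt16 was called higher than in WT glands without WT gland 2 in N glands (3.58) and in NP glands, and with a replicate block in N glands (2.82, adjusted p = 0.00271). Wnt8a was called lower in tumors than in WT glands only without the same gland (-3.72) or without the filter (-3.15).

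**Figure D4:**
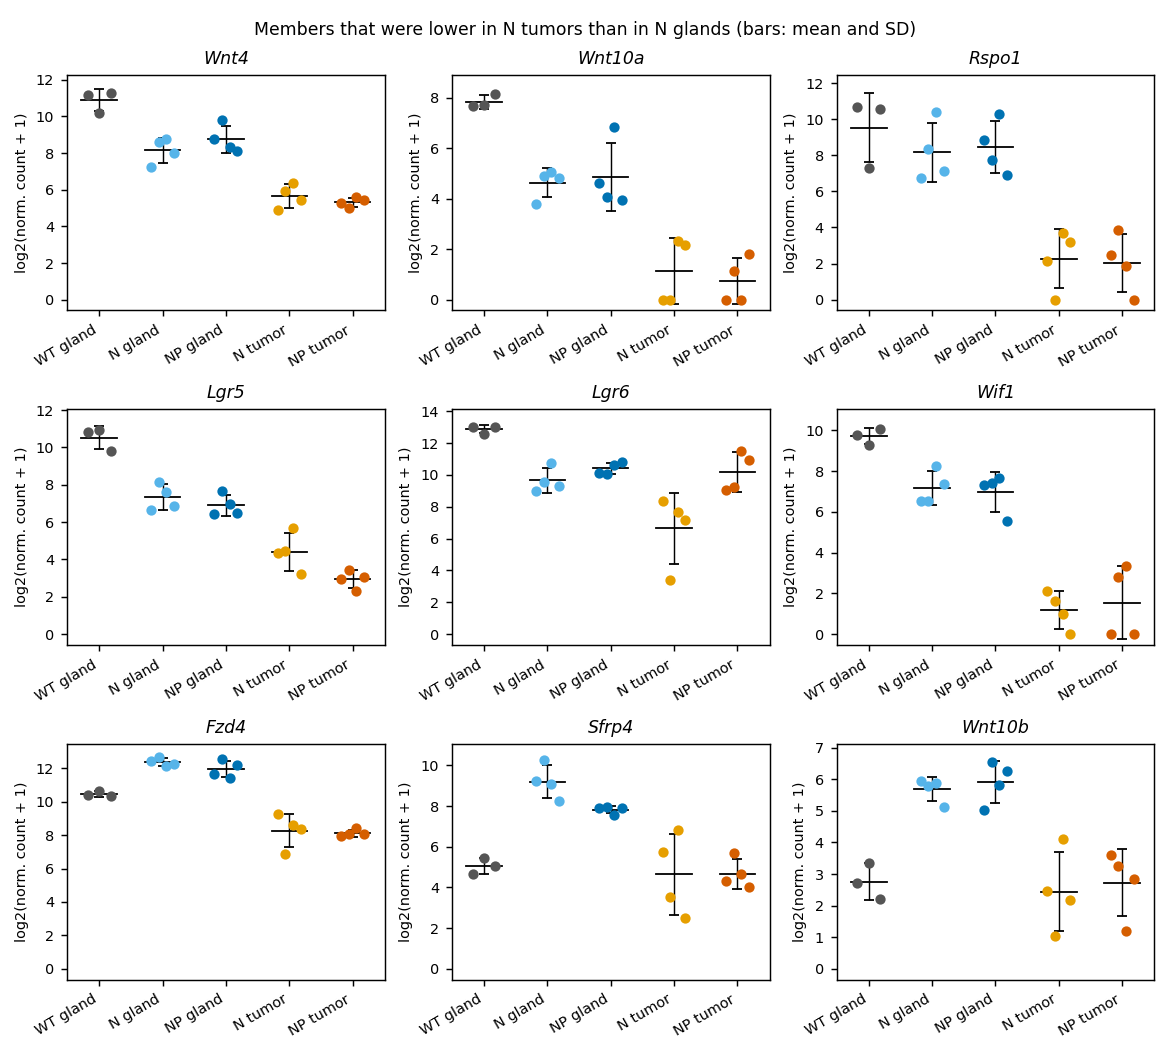
Log2(normalized count + 1) of 9 members lower in N tumors than in N glands (y axis) in the 5 groups (x axis), with a point per library and bars for the mean and SD. Wnt4, Wnt10a, Lgr5 and Wif1 step down from WT glands to N and NP glands to tumors, whereas Fzd4, Sfrp4 and Wnt10b peak in N and NP glands.

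The Frizzled receptors split into those that were lower and those that were higher in tumors. Of the 12 receptors 5 were higher and 2 lower in N tumors, with 5 and 2 also in NP tumors. Of all genes 35.1% were called in N and 38.7% in NP tumors. Fzd4 (ENSMUSG00000049791, chromosome 7, 89404355 to 89413134) had 1374, 1616 and 1283 normalized counts in WT glands, 5572, 6518, 4473 and 4827 in N glands and 3232, 5974, 2765 and 4703 in NP glands. In N tumors it had 610.1, 116, 394 and 324 and in NP tumors 241, 269.6, 340.3 and 262. Tumors lay below WT glands, and WT glands below tumor-bearing glands, with no overlap. It was higher in N glands than in WT glands (log2 difference 1.90 ± 0.15 SE, limma adjusted p = 3.12e-05) and lower in N tumors (log2 difference -4.10 ± 0.44 SE, limma adjusted p = 0.000213) and NP tumors (log2 difference -3.85 ± 0.25 SE, limma adjusted p = 1.4e-05) than in their glands. The rise in NP glands over WT glands (log2 difference 1.49 ± 0.27 SE, limma adjusted p = 0.00434) was not called with the muscle covariate (0.20, adjusted p = 0.752).

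Fzd10 had 241, 268 and 275 normalized counts in WT glands, 40.8, 77, 89.2 and 87.5 in N glands, 40.1, 62.8, 96.4 and 54.2 in NP glands, 22.7, 0, 6.06 and 0 in N tumors and 17.9, 8.54, 6.49 and 13.7 in NP tumors. WT glands, tumor-bearing glands and tumors did not overlap, and N tumors 2 and 4 had 0 reads. The fall was called in N (log2 difference -4.31 ± 0.99 SE, limma adjusted p = 0.00672) and NP tumors (log2 difference -2.37 ± 0.41 SE, limma adjusted p = 0.00142). Fzd7 and Fzd8 were lower in both gland groups than in WT glands, for Fzd7 by log2 difference -2.59 ± 0.16 SE, limma adjusted p = 7.83e-06 in N and log2 difference -2.18 ± 0.20 SE, limma adjusted p = 0.000341 in NP glands. Fzd1 was 0.99 lower in N tumors, just under 2-fold, and was called without N gland 1 (-1.09) or 4 (-1.06) or N tumor 3 (-1.18) or 4 (-1.07). In the limma fits as described, Fzd7 was not called between tumors and glands, with 801 to 5541 normalized counts in N tumors against 1073 to 1632 in N glands. It was called higher in N tumors when N tumor 1, the lowest, was left out (log2 difference 1.58, adjusted p = 0.00371), by DESeq2 (1.33, adjusted p = 0.0202) and in a joint fit of all 5 groups (1.01, adjusted p = 0.0458), and in NP tumors with the muscle covariate (1.12, adjusted p = 0.0143).

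Fzd9 had the largest rise in tumors among the receptors. WT glands had 57.6, 43.9 and 75.96 normalized counts, N glands 154, 5.75, 13.1 and 7.21 and NP glands 41.97, 238, 20.6 and 234. N tumors had 281, 213, 798 and 1873 and NP tumors 1098, 1048, 451 and 738. Every N tumor was above every N gland, every NP tumor was above every NP gland, and N gland 1 and NP glands 2 and 4 stood above the other glands. N gland 1 is also the N gland that carries Fsp-Cre, and NP glands 2 and 4 are those richest in muscle transcripts. The rise was called in N (log2 difference 4.88 ± 1.07 SE, limma adjusted p = 0.00535), in NP (log2 difference 3.21 ± 0.78 SE, limma adjusted p = 0.00793) and for all tumors against WT glands (log2 difference 3.48 ± 0.57 SE, limma adjusted p = 0.00028). Without N gland 1, N glands were also called lower than WT glands (log2 difference -2.67, adjusted p = 0.00117).

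Fzd5, Fzd6 and Fzd2 were low in tumor-bearing glands and higher both in WT glands and in tumors. Fzd5 had 1568, 1539 and 1687 normalized counts in WT glands, 669.97, 361, 355 and 364 in N glands and 299, 479.6, 633 and 269.9 in NP glands, and 1269, 5174, 2112 and 4867 in N tumors against 1222, 1620, 1040.4 and 1733 in NP tumors. N tumors 2 and 4 were the highest. In NP against WT glands, Fzd5 (log2 difference -2.01 ± 0.30 SE, limma adjusted p = 0.00204) and Fzd2 (log2 difference -1.64 ± 0.19 SE, limma adjusted p = 0.000812) were lower, and neither was called with the muscle covariate (-1.005, adjusted p = 0.295 and -1.76, adjusted p = 0.0525). The tumor-gland rise of Fzd5 was called in N (log2 difference 2.77 ± 0.46 SE, limma adjusted p = 0.0014) and in NP (log2 difference 1.79 ± 0.30 SE, limma adjusted p = 0.0012), in NP not with the muscle covariate (1.32, adjusted p = 0.0845). Fzd6, a receptor of planar cell polarity, had 1888 ± 185 normalized counts in WT glands, 729 ± 182 in N glands, 615 ± 121 in NP glands, 1536 ± 281 in N tumors and 1942 ± 134 in NP tumors. It was higher in N tumors than in N glands (log2 difference 1.09 ± 0.21 SE, limma adjusted p = 0.00317), where leaving out N gland 4 took the difference to 0.97, under 2-fold, and in NP tumors (log2 difference 1.67 ± 0.16 SE, limma adjusted p = 6.84e-05). Against WT glands the tumors differed by -0.14 for Fzd6, with a 95% interval of -0.45 to 0.18. The luminal epithelium score had the same order, lower in tumor-bearing glands than in WT glands and tumors.

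The co-receptor Lrp6 was not called in any comparison, and Lrp5 was. Lrp6 had 8447 ± 420.3 normalized counts in WT glands, 8279.6 ± 937 in N glands, 6709 ± 960.5 in NP glands, 10498 ± 2447 in N tumors and 10331 ± 436 in NP tumors and differed by under 2-fold in each comparison. Every NP tumor was above every NP gland for Lrp6. Without the 2-fold threshold that smaller rise was called (log2 difference 0.63, limma adjusted p = 0.00397). Lrp5 was lower in N glands (log2 difference -1.41 ± 0.16 SE, limma adjusted p = 0.00017) and NP glands (log2 difference -1.39 ± 0.14 SE, limma adjusted p = 0.000457) than in WT glands and higher in N tumors than in N glands (log2 difference 1.50 ± 0.19 SE, limma adjusted p = 0.000413). In NP tumors the Lrp5 difference was 0.83, with a 95% interval of 0.23 to 1.44, and it was called without NP tumor 3, which had the lowest count (log2 difference 1.08, adjusted p = 0.0035).

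**Figure D5:**
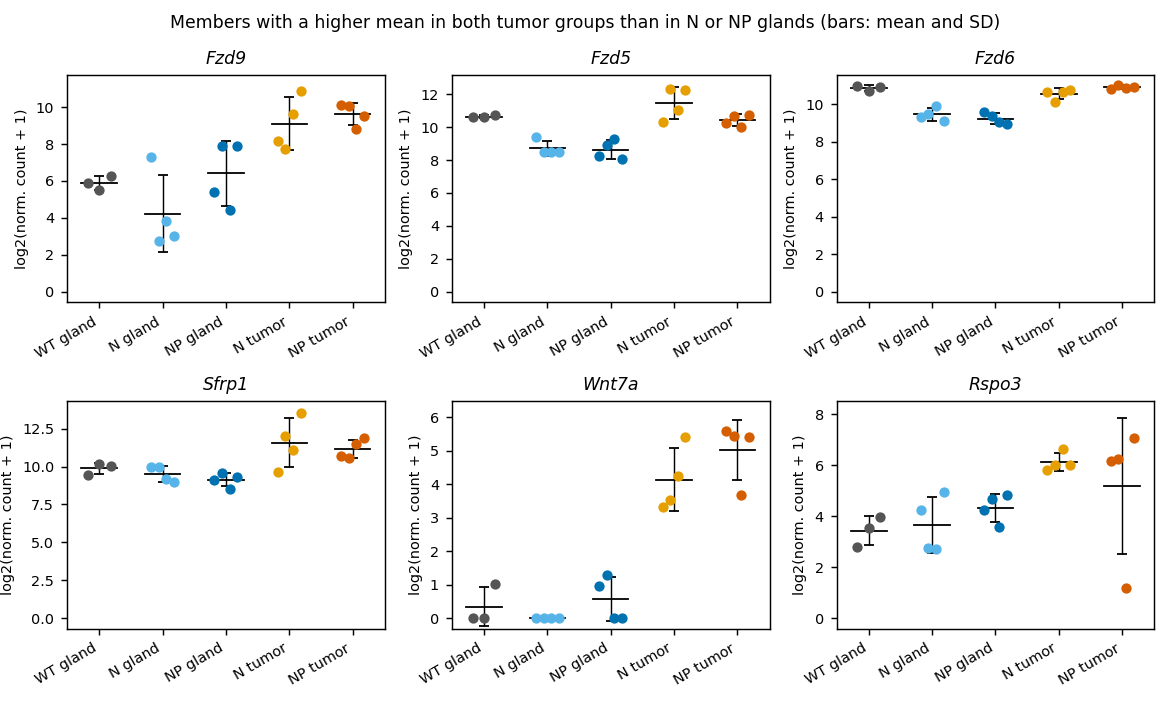
Log2(normalized count + 1) of 6 members (y axis) in the 5 groups (x axis), with a point per library and bars for the mean and SD. Fzd9, Fzd5, Fzd6 and Wnt7a lie higher in N tumors than in N glands and in NP tumors than in NP glands. N tumor 1 is within the gland range for Sfrp1, and NP tumor 3 is far below the other NP tumors for Rspo3.

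Of the R-spondins, Rspo1 all but disappeared from tumors and Rspo3 was higher in N tumors. Rspo1 (ENSMUSG00000028871, chromosome 4, 124986430 to 125009099), the luminal partner signal of WNT4, had 1634, 159 and 1512 normalized counts in WT glands, 107, 324, 1365 and 141 in N glands, 462, 214, 1269 and 121 in NP glands, 3.41, 0, 12.1 and 8.17 in N tumors and 4.48, 13.4, 2.60 and 0 in NP tumors. The glands spread widely within each group, and every tumor was below every gland. WT gland 2 was the lowest WT gland for Rspo1 and for Wnt4, and it had a hormone receptor score of 11.1 against 12.6 and 12.8 in WT glands 1 and 3. A link between the score and these genes was not tested. The fall was called in N (log2 difference -5.90 ± 0.99 SE, limma adjusted p = 0.00151) and in NP (log2 difference -6.42 ± 0.93 SE, limma adjusted p = 0.000572), and between WT and tumor-bearing glands no difference was called, with a 95% interval of -3.77 to 1.06 for N glands. Rspo3 had 17.8, 5.75, 5.63 and 29.9 normalized counts in N glands and 18.1, 24.3, 10.8 and 27.1 in NP glands, and 54.5, 64.3, 98.97 and 64.2 in N tumors and 71.8, 75.6, 1.299 and 135 in NP tumors. N tumors were above all glands (log2 difference 2.46 ± 0.54 SE, limma adjusted p = 0.00547). NP tumor 3 had a single read, and the NP difference was not called (log2 difference 0.86 ± 1.16 SE, limma adjusted p = 0.552) unless that tumor was left out (2.19, adjusted p = 0.00456). Without it the other 7 tumors were also called higher than WT glands (2.88, adjusted p = 6.7e-05), which had 5.97, 10.7 and 14.5.

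Among the R-spondin receptors, Lgr5, a marker of stem cells in several epithelia, fell in a stepwise manner. WT glands had 1826, 1952 and 899 normalized counts, N glands 98.1, 286, 197 and 117, NP glands 84.9, 206, 123 and 89.1, N tumors 19.3, 21.1, 50.5 and 8.17 and NP tumors 6.73, 9.76, 3.90 and 7.49. The 3 kinds of tissue did not overlap. N glands were lower than WT glands (log2 difference -3.20 ± 0.41 SE, limma adjusted p = 0.000338), N tumors lower than N glands (log2 difference -2.91 ± 0.56 SE, limma adjusted p = 0.0028) and NP tumors lower than NP glands (log2 difference -3.95 ± 0.39 SE, limma adjusted p = 8.52e-05). The basal epithelium score fell in the same order. Lgr4, the broadly expressed member, had 4068 ± 327 normalized counts in WT glands, 1625 ± 436 in N glands, 1802 ± 297 in NP glands, 3454 ± 1147 in N tumors and 3675 ± 1078 in NP tumors. It was called higher in N tumors (log2 difference 1.06 ± 0.29 SE, limma adjusted p = 0.0145), and the difference was under 2-fold without N gland 4 (0.89) or N tumor 3 (0.96) or 4 (0.90). In NP tumors it was 0.99, with a 95% interval of 0.49 to 1.50, just under 2-fold, and above 2-fold without NP gland 2 (1.10), NP tumor 2 (1.12) or NP tumor 3 (1.12).

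Lgr6, a marker of progenitor cells of the skin and mammary gland, had the largest difference between N and NP tumors of the 27 members tested there. WT glands had 8233, 6058 and 8116 normalized counts, N glands 508, 763, 1745 and 639 and NP glands 1123, 1061, 1569 and 1783. N tumors had 326, 9.48, 202 and 141 and NP tumors 528, 593, 2946 and 1979. All NP tumors were above all N tumors, and NP tumors 3 and 4 lay above the NP glands. NP tumors did not pass the test against N tumors (log2 difference 3.54 ± 1.05 SE, limma adjusted p = 0.617), with a 95% interval of 1.16 to 5.93. DESeq2 on the recovered reads called it (3.14, adjusted p = 0.0239), and edgeR did not. N tumors were lower than N glands (log2 difference -3.02 ± 0.98 SE, limma adjusted p = 0.0302), a call lost without N gland 2, 3 or 4 (adjusted p = 0.0609, 0.079 and 0.0561). For NP the difference was -0.22 with an interval of -1.45 to 1.02. The test of whether the tumor-gland difference itself differed between genotypes gave 2.81 ± 1.21 (SE) with an adjusted p of 0.588 (limma). The 7 basal epithelium genes scored 6.40 ± 0.86 in N tumors and 7.29 ± 0.451 in NP tumors, with overlapping ranges (exact permutation p = 0.114, two-sided).

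The Wnt-binding inhibitors Wif1, Sfrp5 and Sfrp4 fell steeply in tumors. Of the 6 genes of this class 1 was higher and 3 lower in N tumors, against 35.1% of all genes called. In NP tumors 1 was higher and 4 lower of 5 tested, against 38.7% of all genes. Wif1 (ENSMUSG00000020218, chromosome 10, 121033960 to 121100650) had 881, 628 and 1064 normalized counts in WT glands, 90.4, 90.8, 305 and 162 in N glands, 159, 167, 198 and 45.2 in NP glands, 3.41, 2.11, 1.01 and 0 in N tumors and 0, 6.10, 9.09 and 0 in NP tumors. WT glands, tumor-bearing glands and tumors did not overlap, and NP gland 4 was the lowest gland. The fall was called in N (log2 difference -5.96 ± 0.57 SE, limma adjusted p = 0.00014) and NP tumors (log2 difference -5.43 ± 0.88 SE, limma adjusted p = 0.00105), and the tumors together lay far below WT glands (log2 difference -8.34 ± 0.76 SE, limma adjusted p = 4.73e-06). N glands were below WT glands (log2 difference -2.55 ± 0.43 SE, limma adjusted p = 0.00126). In NP glands the fall (log2 difference -2.74 ± 0.51 SE, limma adjusted p = 0.00477) was not called with the muscle covariate (-1.32, adjusted p = 0.442).

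Sfrp5 and Sfrp4 are inhibitors made by fat and stromal cells, among others. Sfrp5 had 77.2, 211 and 112 normalized counts in WT glands, 72.6, 297, 114 and 151 in N glands and 92.5, 141, 221 and 293 in NP glands. It had 2.27, 0, 12.1 and 0 in N tumors and 2.24, 1.22, 0 and 2.50 in NP tumors, below every gland. Both falls were called, at log2 difference -5.77 ± 0.85 SE, limma adjusted p = 0.000822 in N and log2 difference -6.26 ± 0.52 SE, limma adjusted p = 3.8e-05 in NP. Sfrp4 had 24.3, 42.5 and 32.6 normalized counts in WT glands, 606, 1225, 548 and 299 in N glands, 241, 248, 185 and 238 in NP glands, 52.3, 10.5, 114 and 4.67 in N tumors and 19.1, 50.02, 24.7 and 14.98 in NP tumors. Tumor-bearing glands were above every WT gland and every tumor. Sfrp4 was higher in N glands than in WT glands (log2 difference 4.15 ± 0.44 SE, limma adjusted p = 0.000119) and lower in N tumors (log2 difference -4.55 ± 0.91 SE, limma adjusted p = 0.00348) and NP tumors (log2 difference -3.16 ± 0.37 SE, limma adjusted p = 0.000194). It was also higher in NP glands than in WT glands (log2 difference 2.77 ± 0.26 SE, limma adjusted p = 0.000337), a call missed with the muscle covariate (2.25, adjusted p = 0.0505). All NP glands were below all N glands for Sfrp4 without passing the test (log2 difference -1.38 ± 0.38 SE, limma adjusted p = 0.327). The fibroblast score was 12.9 ± 0.559 in N and 11.9 ± 0.293 in NP glands, without overlap (exact permutation p = 0.0286, the smallest that 4 against 4 allows, two-sided). With Benjamini-Hochberg adjustment over all marker lists and comparisons, this permutation p was 0.0608 and did not pass 0.05. A link between the score and Sfrp4 was not tested.

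Sfrp1 went the other way, and it spread widely among N tumors. Glands had 497 to 1005 normalized counts in N and 375 to 765 in NP, against 794, 4185, 2225 and 11905 in N tumors and 1660.4, 1522, 2912 and 3732 in NP tumors. N tumor 1 was within the N gland range. The rise was called in N (log2 difference 2.07 ± 0.72 SE, limma adjusted p = 0.0387) and in NP (log2 difference 2.03 ± 0.33 SE, limma adjusted p = 0.00108), and in N it was lost without any single N gland (adjusted p = 0.0576, 0.0591, 0.0871 and 0.0951 for N glands 1 to 4) or without N tumor 2, 3 or 4 (0.0844, 0.0505 and 0.0662). Against WT glands the tumors were not called higher (log2 difference 1.49 ± 0.63 SE, limma adjusted p = 0.0562). They were called higher without N tumor 1 (1.82, adjusted p = 0.00562) or N tumor 4 (1.16, adjusted p = 0.0478), and with all libraries under TMM scaling (1.55, adjusted p = 0.0487), by edgeR (1.88, adjusted p = 0.0311), by DESeq2 (1.83, adjusted p = 0.00429) and in the joint fit (1.49, adjusted p = 0.0235). Sfrp2 was lower in NP tumors than in NP glands (log2 difference -1.40 ± 0.29 SE, limma adjusted p = 0.00365), and in N tumors it was called without N tumor 3 (-3.17, adjusted p = 0.0177) or in the joint fit (-2.15, adjusted p = 0.0368). N tumor 3 had 989.7 normalized counts of Sfrp2 and the highest fibroblast score of the tumors, 11.96. Against WT glands Sfrp2 was lower over all tumors (log2 difference -2.45 ± 0.81 SE, limma adjusted p = 0.0195), a call lost without WT gland 1 or 2 (adjusted p = 0.0566 and 0.074).

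Frzb was uneven within groups. It had 8.53, 15.1 and 9.30 normalized counts in WT glands, 16.6, 19.5, 8.45 and 7.21 in N glands, 30.5, 254, 9.75 and 130.4 in NP glands, 0, 404, 4.04 and 1078 in N tumors and 5.61, 1.22, 5.20 and 7.49 in NP tumors. NP glands 2 and 4 and N tumors 2 and 4 stood far above the rest. The NP glands 2 and 4 are those with the most muscle transcripts, whereas N tumors 2 and 4 had skeletal muscle scores of 4.54 and 4.36, near the 4.06 ± 0.065 of WT glands. As filtered here, limma called Frzb in no comparison of all libraries, but without the filter, or with one at a mean of 50, NP tumors were called lower than NP glands (-3.46, adjusted p = 0.0163 and 0.0191). Without NP gland 3, NP glands were called higher than WT glands (log2 difference 3.13, adjusted p = 0.0149) and NP tumors lower than NP glands (-4.27, adjusted p = 0.00253), and the latter was also called without each NP tumor in turn (-3.57, -3.05, -3.54 and -3.69). edgeR and DESeq2 called Frzb higher in N tumors than in N glands (4.84 with an adjusted p of 0.0464 and 4.86 with 0.0117). With all libraries they also called it higher in NP glands than in WT glands (edgeR 3.30, adjusted p = 0.0382, and DESeq2 3.30, adjusted p = 0.00132).

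Of the Dickkopf genes only Dkk2 and Dkk3 could be tested, and both were lower in NP tumors than in NP glands. Dkk2, an antagonist of the LRP co-receptors, had 72.9, 105 and 89.9 normalized counts in WT glands, 149, 103, 119 and 82.4 in N glands, 77.3, 116, 58.5 and 132 in NP glands, 23.9, 18.97, 51.5 and 10.5 in N tumors and 23.5, 8.54, 31.2 and 37.5 in NP tumors. Every tumor was below every gland, and WT and tumor-bearing glands overlapped. The falls were called in N (log2 difference -2.26 ± 0.46 SE, limma adjusted p = 0.00383) and NP (log2 difference -1.99 ± 0.48 SE, limma adjusted p = 0.00796), the latter not with the muscle covariate (-0.97, adjusted p = 0.37) or without NP glands 2 and 4 (-1.56, adjusted p = 0.063). Dkk3, the divergent member of the family, had 1598, 2246 and 1513 normalized counts in WT glands, 248, 503, 603 and 539 in N glands, 567, 717, 396 and 619 in NP glands, 172, 103, 482 and 65.4 in N tumors and 146, 107, 145 and 169.8 in NP tumors. WT glands were above all other libraries. Dkk3 was lower in N glands (log2 difference -1.97 ± 0.31 SE, limma adjusted p = 0.00086) and NP glands (log2 difference -1.64 ± 0.24 SE, limma adjusted p = 0.00181) than in WT glands and in NP tumors than in NP glands (log2 difference -1.99 ± 0.23 SE, limma adjusted p = 0.000197). In N tumors it did not pass (log2 difference -1.54 ± 0.58 SE, limma adjusted p = 0.0524), and it did in the joint fit (adjusted p = 0.00728) and without N gland 1 (-1.82, adjusted p = 0.0432) or N tumor 3 (-2.08, adjusted p = 0.00458).

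Between NP and N samples of the same tissue, no member was called by limma. In glands 0 of 37 tested members passed, as did 0% of all 18563 genes. An unadjusted p under 0.05 was reached by 5 members, against 10.5% of all genes. These were Frzb, Fzd1, Fzd3, Sfrp4 and Wnt2, of which Fzd1, Fzd3, Sfrp4 and Wnt2 were lower in NP glands and were the 4 of 37 members whose groups did not overlap, against 6.21% of all genes. edgeR called 0 members, and DESeq2 called Frzb (3.08, adjusted p = 0.0165), Sfrp4 (-1.52, adjusted p = 0.00938) and Wnt2 (-1.02, adjusted p = 0.0408). In tumors 0 of 27 tested members passed, against 0.0421% of 16638 genes. Here 4 members had an unadjusted p under 0.05, against 7.27% of all genes: Lgr6, Fzd5, Lrp5 and Wnt5b. Groups did not overlap for 2 of the 27 members, Lgr6 and Fzd6, both higher in NP tumors, against 4.21% of all genes. edgeR called 0, and DESeq2 called Lgr6. For Wnt4 the difference of NP from N tumors was -0.35 with a 95% interval of -1.17 to 0.48, and for Fzd9 0.52 with an interval of -0.95 to 1.99, so that each interval reaches a 2-fold difference. A difference between genotypes in the tumor-gland difference itself was called by limma for 0 of 39 tested members and 0% of 19367 genes. An unadjusted p under 0.05 was reached by Fzd1, Fzd3, Fzd6 and Lgr6, against 7.93% of all genes, edgeR called 0 members, and DESeq2 called Frzb (-9.29, adjusted p = 0.000254).

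Other genes of the pathway were followed in 4 lists. Of 21 feedback and target genes of beta-catenin signaling, 18 were tested, and 4 were higher and 6 lower in N tumors than in N glands, with 6 and 6 in NP, where 35.1% and 38.7% of all genes were called. Axin2, the negative-feedback scaffold that is the most widely used readout of the pathway, had 1013, 336 and 718 normalized counts in WT glands, 498, 522, 608 and 505 in N glands, 610.4, 678, 575 and 637 in NP glands, 20.5, 6.32, 71.7 and 9.34 in N tumors and 22.4, 21.96, 29.9 and 44.9 in NP tumors. Every tumor was below every gland, with log2 difference -4.84 ± 0.64 SE, limma adjusted p = 0.000498 in N and log2 difference -4.40 ± 0.26 SE, limma adjusted p = 1e-05 in NP. Nkd1, another feedback inhibitor, fell by 3.70 and 3.06 on the log2 scale, and Tcf7 by 3.14 and 2.96. Tcf7 is also a T cell gene, and the T cell score was lower in tumors, at 3.94 ± 1.16 in N against 7.72 ± 0.962 in N glands. Ccnd1, which encodes cyclin D1 and answers to many pathways including ERBB2, was higher by 2.72 in N (log2 difference 2.72 ± 0.40 SE, limma adjusted p = 0.000796) and 2.95 in NP, and Ccn4 by 2.101 and 2.95. Members of this list thus moved in both directions.

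Of 17 other extracellular and membrane inhibitors, 13 were tested in N and 12 in NP, with 3 higher and 5 lower in N tumors and 4 higher and 3 lower in NP tumors, against the same 35.1% and 38.7% of all genes. Apcdd1, a membrane inhibitor of Wnt reception, had 235, 297 and 281 normalized counts in WT glands, 2499, 2778, 2322 and 1473 in N glands, 732, 1552, 1242 and 1245 in NP glands, 34.1, 20.02, 68.7 and 35.01 in N tumors and 43.7, 40.3, 84.4 and 51.2 in NP tumors, and fell in both (log2 difference -5.90 ± 0.37 SE, limma adjusted p = 3.36e-05; log2 difference -4.43 ± 0.31 SE, limma adjusted p = 1.94e-05). Shisa3, which holds back Frizzled maturation, was lower as well (log2 difference -4.59 ± 0.52 SE, limma adjusted p = 0.000264 in N; log2 difference -4.99 ± 0.60 SE, limma adjusted p = 0.00023 in NP), and its relative Shisa2 was higher (3.45 in N and 1.25 in NP). Rnf43, the ligase that removes Frizzleds and is blocked by R-spondins, was higher by 2.17 in N and 2.30 in NP tumors than in their glands. WT glands had 2270 ± 479 normalized counts of Rnf43, N tumors 2433 ± 746 and NP tumors 2673 ± 300, with overlapping ranges. Of the 10 genes of Wnt secretion and alternative receptors, 1 was higher and 3 lower in N tumors, and 2 and 3 in NP tumors, against 35.1% and 38.7% of all genes called. Ptk7, a planar polarity co-receptor, was higher by 2.50 (log2 difference 2.50 ± 0.32 SE, limma adjusted p = 0.000445) and 2.66 (log2 difference 2.66 ± 0.37 SE, limma adjusted p = 0.000491). For Ptk7, WT glands had 5443 ± 690 normalized counts, N tumors 7514 ± 2842 and NP tumors 6559 ± 1424, with overlapping ranges. Adgra2, a partner receptor for WNT7 ligands on endothelium, was lower in N (log2 difference -2.28 ± 0.57 SE, limma adjusted p = 0.00951) and NP tumors (log2 difference -1.69 ± 0.24 SE, limma adjusted p = 0.000533), while 6 of 6 endothelium markers were also lower in both. Of 23 cytoplasmic and nuclear transducers, 0 were called in N tumors, against 35.1% of all genes (12 with an unadjusted p under 0.05, as had 58% of all genes). In NP tumors 2 were higher and 2 lower, against 38.7% of all genes called. Ctnnb1, which encodes beta-catenin, was 1.10 higher in NP tumors (log2 difference 1.10 ± 0.15 SE, limma adjusted p = 0.000474) and 0.90 higher, under 2-fold, in N tumors.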

How the data were processed

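Bulk RNA-seq had been run on 3 WT glands and 4 libraries each of N glands, NP glands, N tumors and NP tumors. The authors aligned reads with TopHat2 2.1.1 and Bowtie2 to GRCm38 and deposited DESeq2-normalized counts, a signal per gene in which counts are divided by a size factor per library; the counting tool, annotation and strand setting were not given in the sources used here, so reads of overlapping or antisense genes could be shared. Labels and paper name different RNA library kits. 100% of the deposited values in every library came out as whole reads (tolerance 0.05). Symbols and positions came from GENCODE vM21, which matched 97.97% of 46078 identifiers, and promoters from RefSeq.

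Normalized counts were tested as log2(value + 1) with limma 3.58.1 (empirical Bayes with a trend; R 4.3.3) in the groups compared, with Benjamini-Hochberg adjustment over all genes tested. A gene was kept with 10 normalized counts in as many samples as the smaller group holds, and called at an adjusted p below 0.05 and a 2-fold difference. A gene could thus pass the filter through the group where it was high alone. The script was tested on simulated data. Differences of low genes are understated on this scale. Alternatives were edgeR 4.0.16 and DESeq2 1.42.0 on the recovered reads, other pseudocounts, filters and scaling, a joint fit, a replicate block, a skeletal muscle covariate and leaving out each library. Nothing in the labels ties libraries of different groups to a mouse, and p-values measure the spread between these libraries.

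Any member could be named; every library is given for up to 3 called members of a class, those with the largest absolute differences, and for members that a comparison discusses, and up to 6 genes were named per further list. Members and lists were chosen with earlier results of these data known.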

Additional observations from a re-analysis of the deposited data

Results flagged for a closer look

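For the members, in 123 groups of 4 libraries with enough reads for the check, a single library stood far from the other 3 of its group 9 times, and chance flags about 1 in 20 groups. NP tumor 3 was the low library for Rspo3 (1.299 normalized counts) and Wnt7a (11.69) and the high one for Sfrp2 (215.6, against 120.8 to 121.1 in the other NP tumors). N gland 1 was high for Fzd5 (670.0) and low for Wnt11 (70.05). N gland 2 was high for Wnt9a (126.4, against 87.9 to 93.0 in the other N glands), and N tumor 1 was low for Fzd2 (267, against 461 to 499 in the other N tumors). Among NP glands, NP gland 3 was low for Sfrp4 (185.2) and NP gland 4 for Wif1 (45.2). The groups of 3 WT glands were not checked.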

How the results depend on the processing

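Of 121 calls of a member in a comparison, 91 were kept in every alternative run, and of 2332 values under alternatives 2261 kept the call, 70 lost it and 1 reversed. The reversal was Wnt10a in NP glands against WT glands, 0.81 with the skeletal muscle covariate; this covariate also took the members called there to 13 and the genes called to 1008 higher and 1345 lower, from 3136 and 3081, and the genes called in NP tumors against NP glands to 1621 higher and 2602 lower, from 2625 and 4300. The muscle score did not overlap between the groups in either comparison. The cause was not tested. DESeq2 on recovered reads called 3 members between NP and N glands, 1 between NP and N tumors and 1 in the test of the genotype by tissue difference; over all genes it called 401 higher and 113 lower, 51 and 34, and 50 and 269, where limma called 0, 7 and 0. Leaving out 1 library gave 23 to 26 members called for N and 24 to 27 for NP glands against WT glands, 20 to 28 for N and 24 to 28 for NP tumors against their glands, 23 to 26 for tumors against WT glands and 0 to 0 elsewhere. Averaging NP tumors 1 and 2 left 24 calls in NP tumors.

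Groups share replicate numbers, but a number did not pair libraries: correlations of deviations for the same number ran from -0.317 to 0.329 (median -0.040), and 2 of 19 libraries correlated best with their own number. With a replicate block the members called were 25, 24, 22, 24, 0, 0, 25 and 0, in the order N glands and NP glands against WT glands, N and NP tumors against their glands, NP against N glands, NP against N tumors, tumors against WT glands, and the genotype by tissue test.

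The floor of 3 reads and the filter leave Wnt1, Wnt3, Wnt3a, Wnt8b, Dkk1, Dkk4, Rspo2 and Rspo4 beyond what this depth can compare.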

Other observations

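N tumors 2 and 4 differed from N tumors 1 and 3 in several members at once. Both had the higher values of the 4 N tumors for Fzd5 (5174 and 4867 normalized counts against 1269 and 2112), Fzd7 (5541 and 4392 against 801 and 2361), Sfrp1 (4185 and 11905 against 794 and 2225) and Frzb (404 and 1078 against 0 and 4.04). They had the lower values for Sfrp4 (10.5 and 4.67 against 52.3 and 114) and Fzd10 (0 and 0 against 22.7 and 6.06). These tumors were chosen after their values were seen, and no comparison between them was tested.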
